A study of Arabidopsis thaliana with 10 samples.

Results

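*VSP1*, *THI2.1*, *PDF1.2A*, *PDF1.2B* and *PR4* are 5 *Arabidopsis thaliana* genes for defence proteins that are made at the end of jasmonate signalling. They were chosen by name, as outputs of both branches of the pathway together with a thionin gene, and their signal was followed on all 10 arrays of the study. They are 5 genes among 22746 probe sets other than controls on the Affymetrix ATH1 array, and all 5 were among the 15382 that were kept because 2 or more arrays called them Present. The study compared Ri17, a single transgenic line in which RNA interference targets *JAV1*, with wild-type Col-0. Per genotype there was 1 array for plants exposed to 100 µM methyl jasmonate (MeJA) over 1 h, 1 for 4 h of it, 1 each for 30 min and 60 min after wounding, and 1 for untreated plants. All plants were 21 days old and of the Col-0 background. For wounding, forceps were used to crush 4 leaves of the rosette, so that some 30% of each leaf was damaged.

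Jasmonate is perceived by the F-box protein COI1, which removes JAZ repressors and so frees transcription factors. In one branch MYC factors activate wound genes such as *VSP1*. In the other, EIN3 and EIL1, which also carry the ethylene signal, act through ERF factors on genes of antifungal proteins such as the defensins of the *PDF1.2* group and *PR4*. JAV1 is a VQ-motif protein known as a repressor of jasmonate-driven defence. The level of the *JAV1* transcript was not analysed here.

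The deposited signals had a median of 122.4 to 134.3 per array, with 56.9% to 61.0% of probe sets called Present. Each array had been scaled to the same trimmed mean, so like medians do not show that the arrays were alike before scaling. Of 8 leaf markers listed, 2 had a named probe set, *CA1* and *RCA*, of carbonic anhydrase and Rubisco activase. Both were Present on every array. Seedlings hold leaves too, so these calls do not tell leaves from whole seedlings. The submitters' protocols describe seedlings in MS medium for MeJA and rosette leaves for wounding, and a control with medium alone was not analysed here. The 4 MeJA arrays lay wholly above or wholly below the other 6 for 33 of the 64 control probe sets and for 21.1% of kept probe sets. Effects of MeJA against untreated plants therefore cannot be told apart from effects of handling or tissue, while the difference between 4 h and 1 h of MeJA lies within the MeJA arrays. With no medium control at either time, that difference cannot be told apart from effects of time in medium or of harvest time. In whole leaves, fewer cells with a transcript and less of it per cell cannot be told apart.

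Levels below are the deposited signals, a linear intensity. Effects are log2 differences ± standard error (SE) from limma on signals raised to a floor of 37.7, the 75th percentile of signals called Absent. Each treatment effect averages the difference seen in Ri17 and that seen in Col-0, with Benjamini-Hochberg adjusted p over 15382 probe sets and a threshold of 0.05. All 4 treatments are set against the same pair of untreated arrays. Levels of different genes are not set against each other, because each probe set has its own brightness.

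*VSP1*, the gene of a vegetative storage protein of the acid phosphatase family that accumulates in wounded leaves, was raised by both treatments at both times. In Ri17 its signal was 1039.3 untreated, 21955 at 1 h and 25153.4 at 4 h of MeJA, 18265.1 at 30 min and 6289.3 at 60 min of wounding. In Col-0 it was 318.6 untreated, 24064.1 at 1 h and 27657.2 at 4 h of MeJA, 9398.4 at 30 min and 6722.2 at 60 min of wounding. All 8 treated arrays lay above both untreated ones. The levels ran from highest to lowest as MeJA 4 h, MeJA 1 h, wounding 30 min, wounding 60 min and untreated, and no neighbouring pair of conditions overlapped. How many other probe sets had conditions as fully apart was not counted. The effect was 5.32 ± 0.47 at 1 h of MeJA (39.9-fold, limma adjusted p = 3.40e-04) and 5.52 ± 0.47 at 4 h (45.8-fold, limma adjusted p = 2.16e-04). Wounding gave 4.51 ± 0.47 at 30 min (22.8-fold, limma adjusted p = 8.37e-04) and 3.50 ± 0.47 at 60 min (11.3-fold, limma adjusted p = 0.00172). The probe set is marked by the manufacturer as shared by more than 1 transcript. *VSP2*, its close relative, is the next protein-coding gene in the TAIR10.1 annotation and has no probe set of its own among those named, so the signal may hold both.

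*THI2.1* encodes a thionin, a small cysteine-rich peptide that is toxic to microbes, and its signal rose late, at 4 h of MeJA. In Ri17 it read 35.5 untreated, 57.9 at 1 h and 923.7 at 4 h of MeJA, 37.9 at 30 min and 72.3 at 60 min of wounding. In Col-0 it read 18.1 untreated, 40.6 at 1 h and 590.9 at 4 h of MeJA, 40.7 at 30 min and 27.3 at 60 min of wounding. Only the 2 arrays at 4 h of MeJA stood well apart. Both wounded arrays at 60 min, both at 1 h of MeJA and both at 30 min of wounding overlapped in their order. Both untreated arrays lay under the floor, as did the Col-0 array at 60 min of wounding, which read below untreated Ri17. The gene was called Present on 5 arrays, Marginal on 1 and Absent on 4, and 3 arrays lay under the floor. Because both untreated arrays did, the effect at 4 h of MeJA was at least 4.29, or at least 19.6-fold (limma adjusted p = 8.06e-05). At 1 h it was at least 0.36 (limma adjusted p = 0.369), and after wounding the fitted value was 0.06 at 30 min and 0.47 at 60 min, neither past the threshold.

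*PDF1.2A* encodes an antifungal plant defensin and is the classical marker of the ERF branch. Its signal in Ri17 was 374.1 untreated, 108.1 at 1 h and 450.9 at 4 h of MeJA, 244.2 at 30 min and 283.8 at 60 min of wounding. In Col-0 the series read 92.1 untreated, 45.3 at 1 h and 186.0 at 4 h of MeJA, 146.8 at 30 min and 243.4 at 60 min of wounding. In each genotype the array at 1 h of MeJA was the lowest of the 5, and in all 5 conditions the Ri17 array was above the Col-0 array. Across both genotypes each condition overlapped its neighbours in the order MeJA 4 h, wounding 60 min, wounding 30 min, untreated and MeJA 1 h. At 1 h of MeJA the gene fell by 1.41 ± 0.39, so that untreated plants were 2.65-fold higher (limma adjusted p = 0.0305). That call was lost without any 1 of 7 arrays, and the value was -0.83 ± 0.37 (limma adjusted p = 0.154) without the untreated Ri17 array. The differences at 4 h of MeJA (0.64 ± 0.39), at 30 min (0.03 ± 0.39) and at 60 min of wounding (0.50 ± 0.39) did not pass.

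*PDF1.2B*, a second gene of the same defensin group, was called Present on 5 arrays, 4 of them Ri17. In Ri17 it read 102.7 untreated, 27.9 at 1 h and 211.3 at 4 h of MeJA, 107.6 at 30 min and 238.5 at 60 min of wounding. In Col-0 it read 81.1 untreated, 38.6 at 1 h and 32.5 at 4 h of MeJA, 70.5 at 30 min and 250.1 at 60 min of wounding. Both arrays at 60 min of wounding were above all other arrays, and the 2 genotypes were furthest apart at 4 h of MeJA, where the Col-0 array lay under the floor. The untreated arrays, those at 4 h of MeJA and those at 30 min of wounding overlapped. No treatment effect passed the threshold: it was -1.26 ± 0.58 at 1 h of MeJA (limma adjusted p = 0.142) and 1.42 ± 0.58 at 60 min of wounding (limma adjusted p = 0.114). Both passed in limma without either array of 4 h of MeJA, where they were again -1.26 and 1.42, with a smaller SE of 0.24 (adjusted p = 0.0132 at 1 h of MeJA and 0.00889 at 60 min of wounding). At 4 h of MeJA the value was -0.03 ± 0.58. Its sign turned on 1 array: leaving out Ri17 at 4 h gave -1.17 ± 0.30 (limma adjusted p = 0.041), and leaving out Col-0 at 4 h gave 1.11 ± 0.30 (limma adjusted p = 0.051). The probe set is marked as one whose probes may match other sequences, and *PDF1.3*, a near relative, is its neighbour in TAIR10.1.

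*PR4* encodes a hevein-like, chitin-binding protein and was lowest at 1 h of MeJA. In Ri17 its signal was 1917.5 untreated, 318.8 at 1 h and 2645.4 at 4 h of MeJA, 1702.7 at 30 min and 2868.1 at 60 min of wounding. In Col-0 it was 3273.3 untreated, 200.1 at 1 h and 1145.9 at 4 h of MeJA, 1878.6 at 30 min and 1282.9 at 60 min of wounding. The 2 arrays at 1 h of MeJA lay far below the other 8, which overlapped with one another across conditions. At 1 h of MeJA *PR4* fell by 3.31 ± 0.48, with untreated plants 9.92-fold higher (limma adjusted p = 0.00249). It did not pass at 4 h of MeJA (-0.53 ± 0.48), at 30 min (-0.49 ± 0.48) or at 60 min of wounding (-0.39 ± 0.48). The genotypes ran opposite ways at the later times: against its own untreated array, the log2 difference at 4 h of MeJA was 0.46 in Ri17 and -1.51 in Col-0. At 60 min of wounding it was 0.58 in Ri17 and -1.35 in Col-0.

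**Figure D1:**
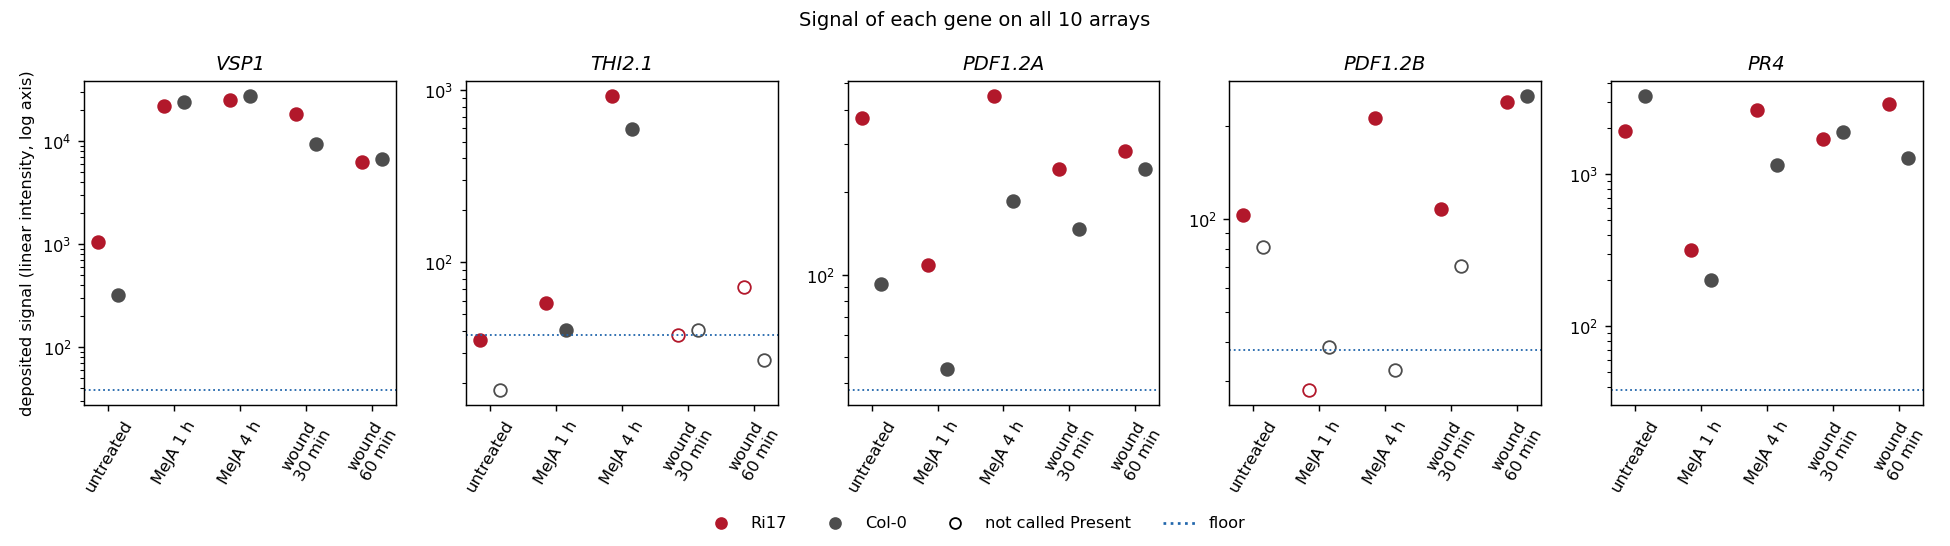
Deposited signal (linear intensity, log axis) of each gene by condition, with Ri17 in red at the left and Col-0 in grey at the right of each pair, 1 array per point. Open points were not called Present and the dotted line is the floor of 37.7. *VSP1* is high on all 8 treated arrays, *THI2.1* only at 4 h of MeJA, and *PR4* is lowest at 1 h of MeJA.

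**Figure D2:**
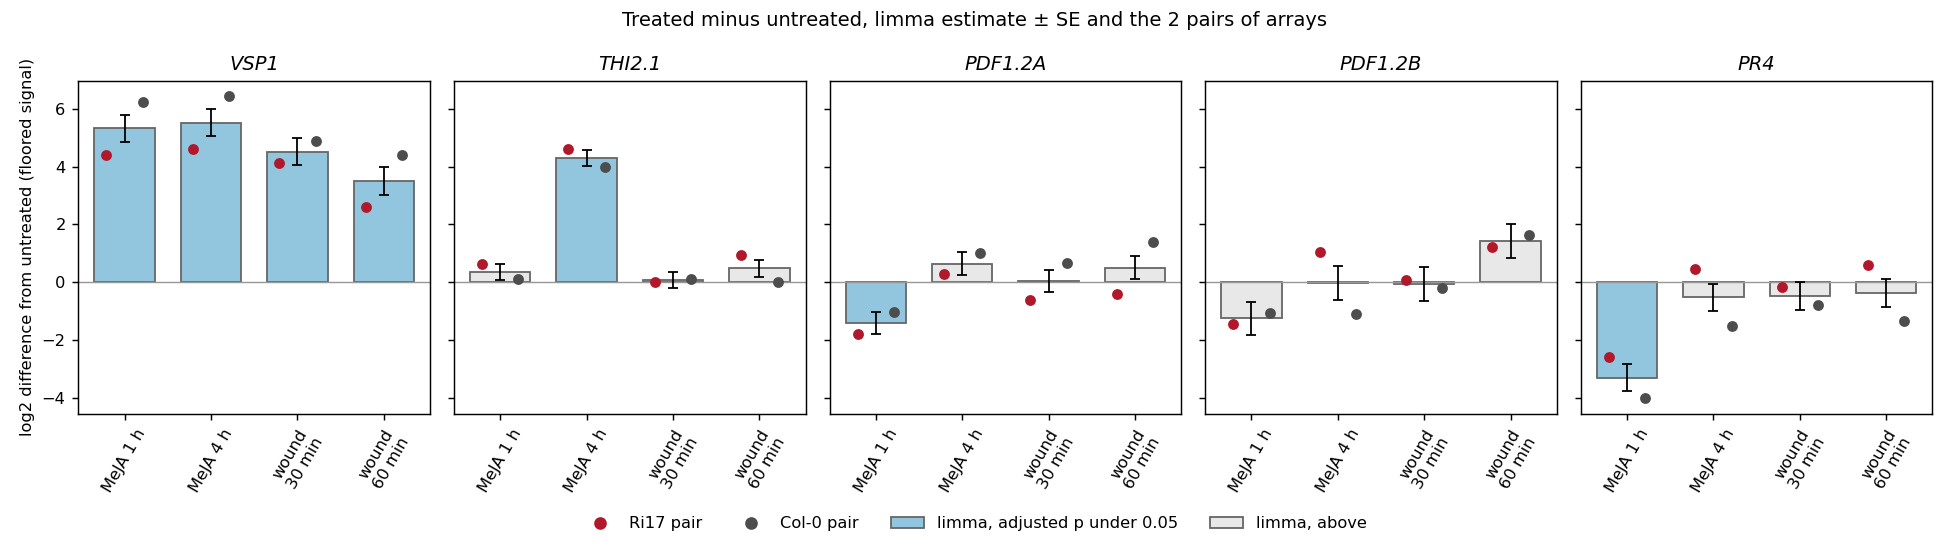
Log2 difference from untreated plants (floored signal) by treatment. Bars are limma estimates over both genotypes with their SE, blue where the adjusted p was under 0.05, and points are the single pairs of arrays, Ri17 in red left of Col-0 in grey. For *THI2.1* both untreated arrays lay under the floor, so its bars at 1 h and 4 h of MeJA are lower bounds, and at 60 min of wounding the Col-0 array lay under it too.

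Counted by treatment, 1 of the 5 genes was called higher at 1 h of MeJA (*VSP1*) and 2 were called lower (*PDF1.2A* and *PR4*), where 15.7% of all kept probe sets were called higher and 15.8% lower. At 4 h of MeJA 2 were called higher (*VSP1* and *THI2.1*) and none lower, against 18.8% and 18.7% of all. At 30 min of wounding *VSP1* alone was called higher, against 9.63% of all, and at 60 min again *VSP1* alone, against 12.1%. None was called lower at 30 min or 60 min, where 10.5% and 16.1% of all were. The median of the 5 effects was -1.26 at 1 h and 0.64 at 4 h of MeJA, beside 0.01 and 0.00 over all kept probe sets. It was 0.03 at 30 min and 0.50 at 60 min of wounding, beside -0.08 and -0.14 over all.

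Between 1 h and 4 h of MeJA, 3 of the 5 genes rose, and *VSP1* and *PDF1.2B* did not pass. *THI2.1* rose by 3.93 ± 0.28 (15.2-fold, limma adjusted p = 0.0013), *PR4* by 2.79 ± 0.48 (6.89-fold, limma adjusted p = 0.0123) and *PDF1.2A* by 2.05 ± 0.39 (4.14-fold, limma adjusted p = 0.0159). *PDF1.2B* differed by 1.23 ± 0.58 (limma adjusted p = 0.212), and by 2.36 ± 0.30 (limma adjusted p = 0.0275) without the Col-0 array at 4 h. For *VSP1* the difference was 0.20 ± 0.47 (limma adjusted p = 0.844), which does not show that the levels were equal. Over all kept probe sets 6.69% were called higher and 7.93% lower in this comparison, and 3 of the 5 genes were called higher. Both arrays at 4 h lay above both at 1 h for *VSP1*, *THI2.1*, *PDF1.2A* and *PR4*, and not for *PDF1.2B*. The share of all kept probe sets with such an order was not counted. The call for *PDF1.2A* was lost without any 1 of the 4 MeJA arrays (1.94 to 2.16), and that for *PR4* without either array of 1 h or the Ri17 array of 4 h (2.3 to 2.94). The call for *THI2.1* held without any 1 array (3.78 to 4.08).

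Between 30 min and 60 min of wounding none of the 5 passed in limma, where 2.67% of all kept probe sets were called higher and 1.72% lower. *PDF1.2B* was the 1 gene of the 5 with an unadjusted p under 0.05 (1.49 ± 0.58, adjusted p = 0.197), and over all probe sets 3265 had one. *VSP1* differed by -1.01 ± 0.47 (limma adjusted p = 0.274), with both arrays at 60 min below both at 30 min. Such an order was not counted over all kept probe sets.

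Wounded and MeJA-treated plants can be set side by side at 60 min, or 1 h, after the start of either treatment. There *VSP1* stood lower after wounding, and *PR4*, *PDF1.2A* and *PDF1.2B* stood higher. *VSP1* was lower by 1.82 on the log2 scale in wounded plants (-1.82 ± 0.47, 3.54-fold higher under MeJA, limma adjusted p = 0.0232). *PR4* was 2.92 ± 0.48 higher (7.59-fold, limma adjusted p = 0.00437) and *PDF1.2A* 1.91 ± 0.39 higher (3.76-fold, limma adjusted p = 0.00976). *PDF1.2B* was at least 2.68 higher, or at least 6.4-fold (limma adjusted p = 0.0123), the Ri17 array of 1 h MeJA lying under the floor. *THI2.1* differed by 0.11 ± 0.28 (limma adjusted p = 0.803), with the Col-0 array at 60 min of wounding under the floor. So 3 of the 5 genes were called higher and 1 lower, where 14.2% and 20.3% of all kept probe sets were. For each of the 4 genes called, the 2 wounded arrays lay on one side of the 2 MeJA arrays. How many of all kept probe sets were split in this way was not counted. The median over all kept probe sets was -0.16 in this comparison. The other kept genes listed as MYC outputs were not called lower there. *LOX2*, a lipoxygenase gene, differed by -0.01 ± 0.27 (limma adjusted p = 0.982). Its signal lay above 99.8% of probe sets on each of these arrays. Whether an upper limit of the signal narrowed its difference was not tested. *PHO1;H10*, of the phosphate exporter family, was 1.95 ± 0.34 higher (limma adjusted p = 0.00561), and whether it is a MYC output was not tested. At 1 h of MeJA it was called Absent on both arrays, with 44.6 in Ri17 and 51.0 in Col-0. Over the 3 MYC outputs kept, 1 was called higher and 1 lower, with a median of -0.01. The call for *VSP1* was lost without either MeJA array or the wounded Ri17 array (-2.19 to -1.45), that for *PDF1.2A* without either MeJA array (2.0 and 1.81), and that for *PDF1.2B* without the Ri17 array of MeJA or the Col-0 array of wounding (2.24 and 2.22). The call for *PR4* held without any 1 array (2.47 to 3.38). The difference in handling between MeJA and wounded plants cannot be told apart from the treatment here.

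**Figure D3:**
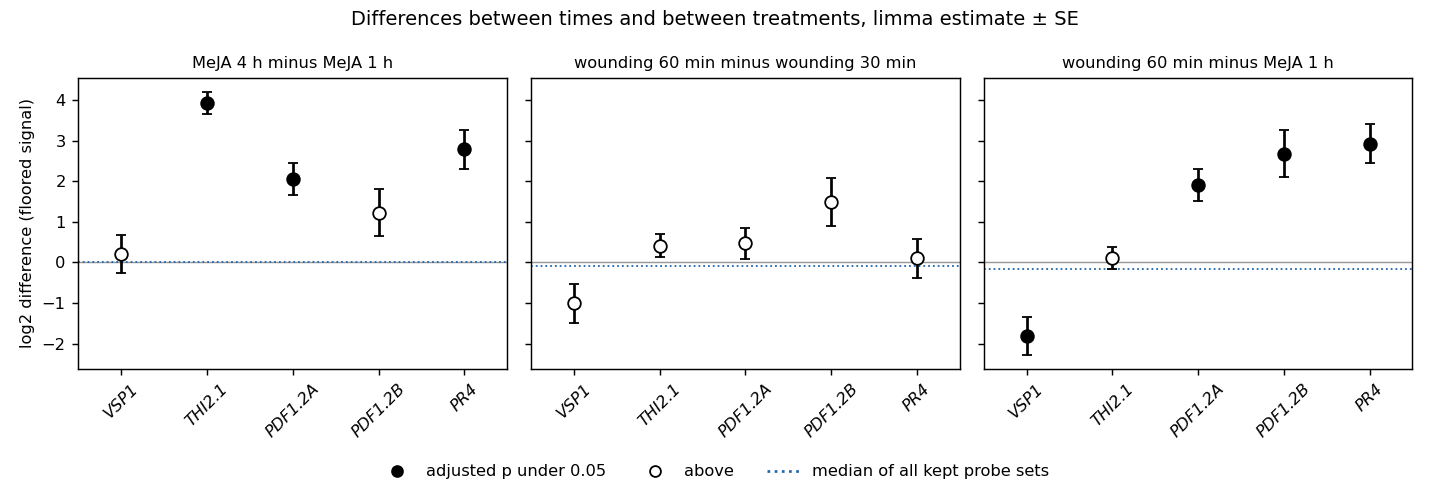
Log2 difference (floored signal) ± SE from limma for each gene between the times of MeJA, between the times of wounding, and between wounding and MeJA at 1 h. Filled points had an adjusted p under 0.05, and the dotted line is the median of all kept probe sets. In the last panel *VSP1* lies at -1.82 and the 3 ERF outputs between 1.91 and 2.92.

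Ri17 was then set against Col-0, the comparison for which the line was made. *PDF1.2A* was the 1 gene of the 5 whose signal was higher in Ri17 in 5 of 5 pairs of arrays, with 1.1 ± 0.25 in limma (2.15-fold, unadjusted p = 0.00267, adjusted p = 0.799). The other 4 genes differed by 0.67 ± 0.37 (*PDF1.2B*), 0.46 ± 0.30 (*VSP1*), 0.43 ± 0.30 (*PR4*) and 0.40 ± 0.18 (*THI2.1*) on the log2 scale, all with adjusted p of 0.799 or above. None of the 5 passed, and limma called 0 of the 15382 probe sets (0% higher and 0% lower), with 951 at an unadjusted p under 0.05. The median of the 5 was 0.46, beside -0.00 over all. Without any 1 array the value for *PDF1.2A* ran from 0.87 to 1.32 and stayed above the threshold.

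The genotype difference of *VSP1* lay in the untreated plants and at 30 min of wounding. Its signal in Ri17 over Col-0 was 3.26-fold untreated and 1.94-fold at 30 min, and 0.91-fold, 0.91-fold and 0.94-fold at 1 h of MeJA, at 4 h of MeJA and at 60 min of wounding. Its level under MeJA over untreated was 21.1-fold at 1 h and 24.2-fold at 4 h in Ri17, against 75.5-fold and 86.8-fold in Col-0. On the MeJA arrays *VSP1* lay above 99.8% to 99.9% of probe sets. Whether an upper limit of the signal narrowed the differences between these arrays, or their distance from untreated, was not tested. The genotype difference in MeJA arrays minus that in the untreated pair was -1.84 ± 0.49 (limma fit with genotype nested in treatment, unadjusted p = 0.0141, adjusted p = 0.359). For wounded arrays it was -1.27 ± 0.49 (unadjusted p = 0.0495, adjusted p = 0.311).

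For *PDF1.2A* the pairs gave 4.06-fold untreated, 2.39-fold at 1 h and 2.42-fold at 4 h of MeJA, 1.66-fold at 30 min and 1.17-fold at 60 min of wounding. Within the MeJA arrays the difference was 1.27 ± 0.19 (nested limma fit, unadjusted p = 0.00125, adjusted p = 0.897), and within wounded arrays 0.48 ± 0.19 (unadjusted p = 0.0523, adjusted p = 0.3). Wounded minus MeJA arrays differed by -0.79 ± 0.26 (unadjusted p = 0.032, adjusted p = 0.481). *PR4* was the 1 gene of the 5 with a lower signal in untreated Ri17 (0.59-fold), yet was 1.59-fold, 2.31-fold and 2.24-fold of Col-0 at 1 h of MeJA, at 4 h of MeJA and at 60 min of wounding, and 0.91-fold at 30 min. For *PR4* the genotype difference in MeJA arrays minus that in the untreated pair was 1.71 ± 0.61 (nested limma fit, unadjusted p = 0.0402, adjusted p = 0.4). *PDF1.2B* at 4 h of MeJA was higher in Ri17 by at least 2.49 on the log2 scale, the Col-0 array being under the floor. It was 1.27-fold of Col-0 untreated and 1.53-fold at 30 min of wounding, with the Col-0 array Absent at both, and 0.95-fold at 60 min. At 1 h of MeJA both arrays were Absent. *THI2.1* was 1.56-fold of Col-0 at 4 h of MeJA, where it was well above the floor.

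No nested comparison called any of the 5 genes. Of all kept probe sets limma called 0% higher and 0% lower within MeJA arrays (772 at an unadjusted p under 0.05), within wounded arrays (2590) and between both (1483). It called 0% higher and 0% lower for MeJA minus untreated (1915), and 1 probe set, or 0.0065%, higher and 0% lower for wounded minus untreated (2463). This fit has 2 residual degrees of freedom, and the untreated pair is 1 array per genotype.

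**Figure D4:**
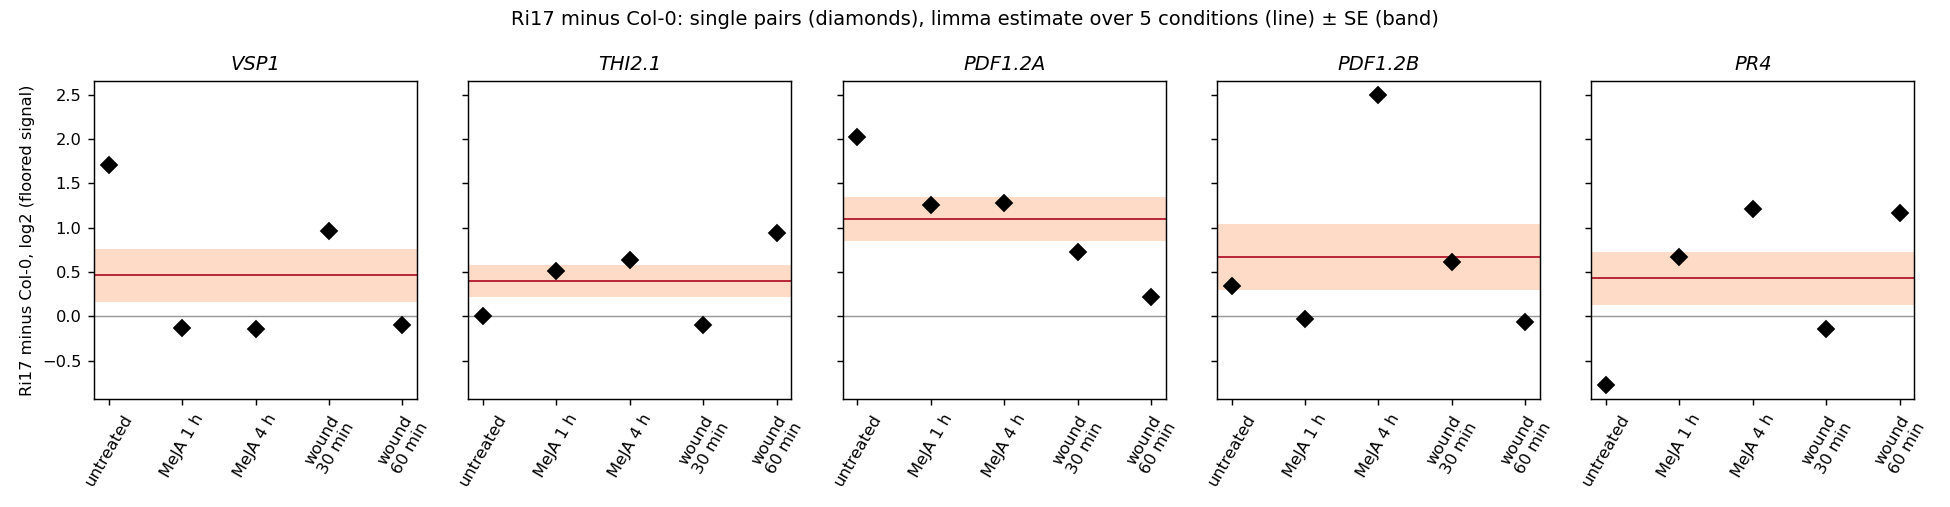
Ri17 minus Col-0 (log2 of floored signal) for each gene and condition. Each diamond is a difference between 2 single arrays, and the line with its band is the limma estimate ± SE over the 5 conditions. All 5 diamonds of *PDF1.2A* lie above 0, and those of *VSP1* lie near 0 except untreated and at 30 min of wounding.

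The authors also compared the arrays of each pair by their probe pairs. In untreated plants the authors' deposited table called 3 of the 5 genes increased in Ri17 and 1 decreased, where 9.81% and 9.84% of all probe sets were. In the authors' deposited table the untreated log2 ratios were 1.6 for *VSP1*, 1.9 for *PDF1.2A*, 1.5 for *PDF1.2B*, all called increased, and -1.0 for *PR4*, called decreased. At 1 h of MeJA the authors' deposited table called 2 increased, *PDF1.2A* (0.8) and *PR4* (0.6), against 4.74% of all. At 4 h of MeJA the authors' deposited table called 4 increased, against 5.64% of all, with log2 ratios of 2.5 for *PDF1.2B*, 1.7 for *PR4*, 1.1 for *PDF1.2A* and 1.0 for *THI2.1*. At 30 min of wounding the authors' deposited table called 3 increased, against 7.7% of all, with 1.1 for *PDF1.2B*, 1.0 for *VSP1* and 0.9 for *PDF1.2A*. At 60 min the authors' deposited table called 1 increased, *PR4* (1.6), against 10.3% of all. In the authors' deposited table none of the 5 was called decreased in a treated pair, where 2.5%, 4.23%, 4.88% and 9.76% of all were at 1 h and 4 h of MeJA and at 30 min and 60 min of wounding. *PDF1.2A* was thus called increased in 4 of 5 pairs by the authors' deposited table, more often than any other of the 5 genes. These calls compare 2 arrays, not the genotypes. For *PDF1.2B* in untreated plants the ratio of 1.5 in the authors' deposited table is larger than the 0.34 that the 2 signals give, the Col-0 array being called Absent. For *PDF1.2A* at 60 min of wounding the authors' deposited table gives 0.9 with no change called, where the signals give 0.22.

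The other genes of both branches were read from lists. Of 10 genes listed as MYC outputs, 3 were measured and kept. Whether each of them is an output of the MYC branch was not tested. *LOX2*, whose lipoxygenase acts in jasmonate synthesis, rose with *VSP1* in all 4 treatments, by 1.76 ± 0.27 at 1 h and 2.03 ± 0.27 at 4 h of MeJA and by 1.33 ± 0.27 at 30 min and 1.74 ± 0.27 at 60 min of wounding (limma adjusted p of 0.0143 or below). *PHO1;H10* fell at 1 h of MeJA (-1.95 ± 0.34), at 4 h (-1.60 ± 0.34) and at 30 min of wounding (-1.80 ± 0.34), with limma adjusted p of 0.0112 or below, and was at 0.01 ± 0.34 at 60 min. In the 3 conditions where it fell, every array called it Absent. In all, 2 of 3 were called higher in each treatment, where 9.63% to 18.8% of all kept probe sets were. The 1 gene of the 3 called lower was *PHO1;H10*, in each treatment but wounding at 60 min. Of all kept probe sets 10.5% to 18.7% were called lower in those 3 treatments.

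Of 8 ERF outputs listed, 5 were kept, among them *PDF1.2A*, *PDF1.2B* and *PR4*. *PDF1.4*, another gene of the defensin family, fell at 1 h of MeJA, where both arrays were Absent, with a difference of -3.19 or lower (limma adjusted p = 0.00348). It fell at 4 h with -3.16 or lower (limma adjusted p = 0.00287), where the Ri17 array was Absent and under the floor. *HCHIB*, a basic chitinase, was at least 2.15 higher at 1 h of MeJA without passing (limma adjusted p = 0.0769), both untreated arrays and both wounded Col-0 arrays being Absent and under the floor. The MeJA arrays all called *HCHIB* Present, with 145.2 at 1 h and 127.3 at 4 h in Ri17. In Col-0 they read 193.1 and 145.2, and *HCHIB* was not called at 4 h either. At 1 h of MeJA 3 of 5 ERF outputs were called lower and none higher, against 15.8% and 15.7% of all, with a median of -1.41 beside 0.01 over all. At 4 h 1 was lower and none higher, against 18.7% and 18.8% of all, with a median of -0.03 beside 0.00. After wounding none of the 5 was called at 30 min (median -0.07, beside -0.08 over all) or 60 min (median 0.50, beside -0.14). At 60 min of wounding against 1 h of MeJA 4 of 5 were called higher, against 14.2% of all, with a median of 2.1 beside -0.16. *PDF1.4* among them was at least 2.1 higher (limma adjusted p = 0.0178), and *HCHIB* differed by -0.61 (limma adjusted p = 0.591).

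Among 14 regulators listed, 9 were kept, and *ERF2* and *ERF1A* rose in all 4 treatments, in which no listed ERF output was called higher. *ERF2* rose by 5.36 ± 0.28 at 1 h and 4.98 ± 0.28 at 4 h of MeJA, and by 5.08 ± 0.28 at 30 min and 4.78 ± 0.28 at 60 min of wounding (limma adjusted p of 8.66e-05 or below). *ERF1A* rose by 5.07 ± 0.29, 5.46 ± 0.29, 4.71 ± 0.29 and 3.75 ± 0.29 at the same 4 points. *ERF1*, known as an activator of *PDF1.2* genes, read 47.0 in untreated Ri17 and 34.9 in untreated Col-0. It rose by 2.70 ± 0.30 at 30 min and 2.03 ± 0.30 at 60 min of wounding and by 1.60 ± 0.30 at 4 h of MeJA (limma adjusted p of 0.00588 or below), but did not pass at 1 h of MeJA (0.46 ± 0.30). These values for *ERF1* are bounds in part, since the untreated Col-0 array lay under the floor. *ERF4*, known as a repressor among the ERF factors, rose by 2.99 ± 0.23 at 30 min and 2.85 ± 0.23 at 60 min of wounding and by 1.06 ± 0.23 at 1 h of MeJA, and stood at 0.17 ± 0.23 at 4 h. *COI1* fell in all 4 treatments, with -1.42 ± 0.21 at 1 h and -1.74 ± 0.21 at 4 h of MeJA and -1.29 ± 0.21 at 30 min and -2.15 ± 0.21 at 60 min of wounding (limma adjusted p of 0.00572 or below). *MYC4* fell likewise, with values of -1.76 ± 0.30, -3.15 ± 0.30, -3.39 ± 0.30 and -4.10 ± 0.30 at these points (limma adjusted p of 0.005 or below), and *MYC3*, *EIN3* and *EIL1* did not pass in any of the 4. At each time of MeJA 3 of 9 regulators were called higher and 2 lower, against 15.7% and 15.8% of all kept probe sets at 1 h and 18.8% and 18.7% at 4 h. At each time of wounding 4 were called higher and 2 lower, against 9.63% and 10.5% of all at 30 min and 12.1% and 16.1% at 60 min.

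**Figure D5:**
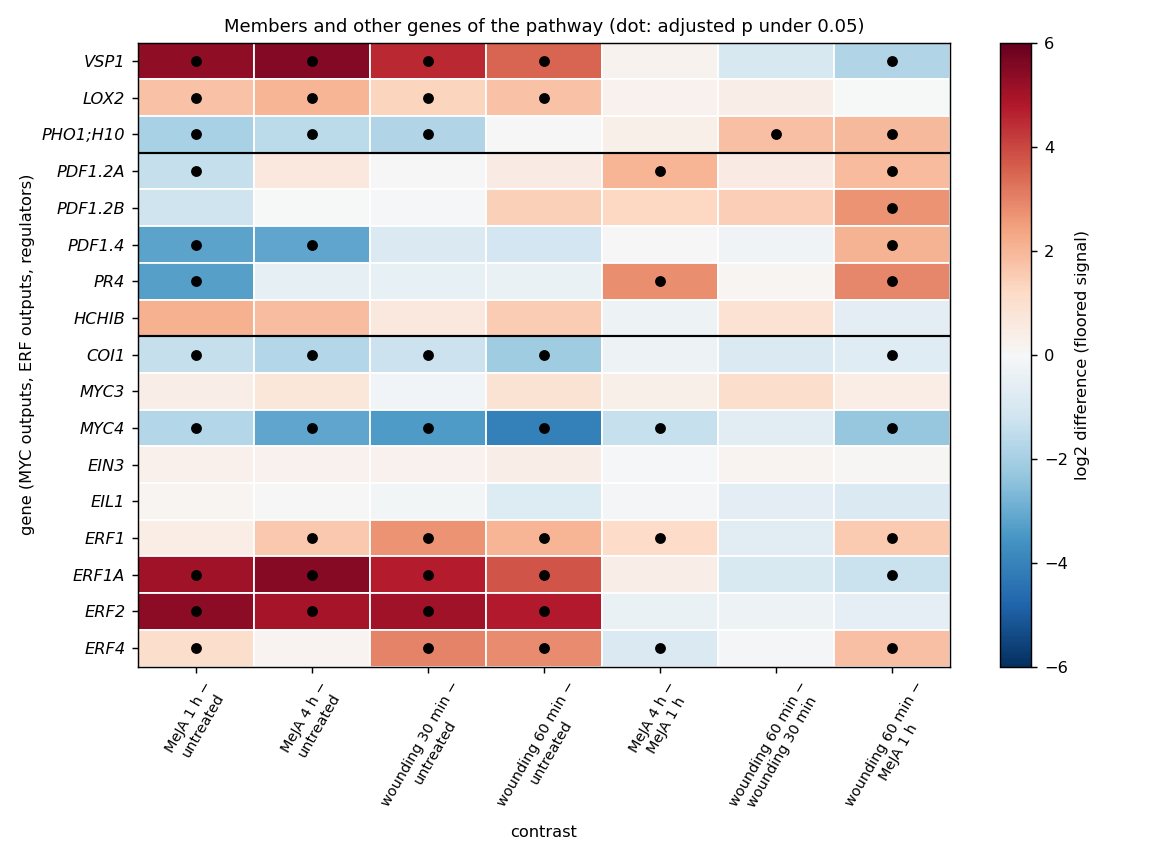
Log2 differences (colour, floored signal) of the kept MYC outputs, ERF outputs and regulators in 7 comparisons, with a dot where the limma adjusted p was under 0.05. *ERF1A* and *ERF2* are called higher in all 4 treatments, while no ERF output is called higher against untreated plants.

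Relatives of the 5 proteins did not move as one group. Of 7 defensin and thionin relatives 3 were kept. *PDF2.2*, a defensin gene, rose by 1.94 ± 0.28 at 4 h of MeJA (limma adjusted p = 0.00178) and by 0.89 ± 0.28 at 60 min of wounding (limma adjusted p = 0.0498). *PDF2.3* fell by 1.91 ± 0.20 at 1 h of MeJA (limma adjusted p = 6.54e-04) and fell by 0.77 ± 0.20 at 4 h (limma adjusted p = 0.0213). Both were higher at 4 h than at 1 h of MeJA, *PDF2.2* by 2.78 ± 0.28 and *PDF2.3* by 1.14 ± 0.20 (limma adjusted p = 0.00247 and 0.0128). *THI2.2*, a second thionin gene, read between 38.1 and 78.7 on the 4 MeJA arrays, all Absent, and did not pass in any treatment. Of 8 relatives of *VSP1* in the acid phosphatase family 7 were kept. Of these, 1 was called higher and 1 lower at 1 h of MeJA, and 1 higher and 2 lower at 4 h, against 15.7% to 18.8% of all each way. At 30 min of wounding 2 were called higher and none lower, and at 60 min 1 higher and 1 lower, against 9.63% to 16.1% of all each way. At 1 h of MeJA the counts each way were near the shares of all. AT2G39920 rose by at least 4.02 at 30 min and at least 3.54 at 60 min of wounding (limma adjusted p = 1.24e-04 and 1.27e-04), with both untreated arrays Absent and under the floor.

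Genes of the salicylate and root marker lists also set the MeJA arrays apart. For these genes too, effects of MeJA cannot be told apart from effects of handling or tissue. *PR2*, a glucanase gene known as a marker of salicylate signalling, read 6.9 and 28.7 in Ri17 and 43.4 and 47.7 in Col-0 at 1 h and 4 h of MeJA. Its signal was 21624.8 and 22918.5 in wounded Ri17 and 7480.4 and 9917.4 in wounded Col-0, and 7831.3 in untreated Ri17 and 10559.8 in untreated Col-0. *PR2* was Absent on all 4 MeJA arrays and Present on the other 6, a larger split than that of *PR4*. Of 6 root marker probe sets, with a summed signal of 1426.7 to 2846.7 under MeJA, 473.6 to 642.7 after wounding and 1426.9 to 1653.8 untreated, *PYK10*, a root beta-glucosidase gene, rose by 4.09 ± 0.73 at 1 h and 5.30 ± 0.73 at 4 h of MeJA (limma adjusted p = 0.00576 and 0.00157). *SCR* and *SHR*, regulators of root patterning, fell in all 4 treatments, with *SCR* between -2.45 and -1.61 and *SHR*, Absent on all 8 treated arrays, between -1.55 and -1.06 or lower (limma adjusted p of 0.031 or below). Of the 4 root markers kept, 1 was thus called higher and 2 lower at each time of MeJA. Of all kept probe sets 15.7% were called higher and 15.8% lower at 1 h, and 18.8% and 18.7% at 4 h. At each time of wounding none of the root markers was called higher and 2 were called lower. Over all kept probe sets the shares were 9.63% and 10.5% at 30 min, and 12.1% and 16.1% at 60 min. *EXPA7* and *EXPA18*, markers of root hairs, were Absent on every array. The 4 flower marker probe sets summed to 64.2 to 119.6 under MeJA, 80.0 to 174.2 after wounding and 96.9 to 138.1 untreated. The part of these genes in the differences of *PR4* and the defensins under MeJA was not tested.

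Over the 10 arrays the 3 ERF outputs followed one another more closely than they followed *VSP1*. Pearson's r of log2 floored signal was 0.72 for *PDF1.2A* with *PDF1.2B*, 0.68 for *PDF1.2A* with *PR4* and 0.67 for *PDF1.2B* with *PR4*. For *VSP1* it was -0.02 with *PDF1.2A*, -0.21 with *PDF1.2B*, -0.51 with *PR4* and 0.46 with *THI2.1*. By ranks (Spearman's rho) the 3 ERF pairs had 0.65, 0.45 and 0.53 in the same order. For *VSP1* rho was -0.04, -0.43, -0.62 and 0.72, so with *THI2.1* it was higher than for any ERF pair. Probes of *PDF1.2B* may match other sequences, and the part of this in its r with *PDF1.2A* was not tested. The 10 points share treatments and genotypes, so these values describe the arrays and carry no test. Among 6337 named probe sets that spanned at least 1 on the log2 scale, the one most like *VSP1* was *ERF1A* (r = 0.978), followed by AT5G38290 (0.967), AT1G77060 (0.965) and the sugar transporter gene *SWEET16* (0.963). *THI2.1* was followed most closely by 2 glycosyltransferase genes, *UGT76B1* (0.985) and *UGT73C1* (0.982), by AT5G19440 (0.982) and by *UGT73C7* (0.981). The genes most like *PDF1.2A* were AT3G59470 (0.863) and *MAP1C* (0.85), with *PDF2.2* in the fourth place (0.806). *CLE26*, a peptide signal gene, was most like *PDF1.2B* (0.882), and AT4G17140 was most like *PR4* (0.956). Around the fit with genotype and treatment the residual SD was 0.75 for *PDF1.2B*, 0.61 for *PR4*, 0.59 for *VSP1*, 0.48 for *PDF1.2A* and 0.31 for *THI2.1*, beside a median of 0.25 over all kept probe sets. The 5 genes thus varied more between arrays, once genotype and treatment were fitted, than most probe sets did.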

How the data were processed

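RNA of 10 samples was hybridised, 1 to an ATH1 array. GCOS is the tool named in the submitters' processing notes for the signal, and the deposited intensities have a mean, trimmed by 2% at each end, of 500.1 on every array. Deposited log2 ratios, change p-values and change calls set the Ri17 over the Col-0 array of each condition, and detection calls stand in other deposited columns, per the file headers. The genome build was not given in the sources used here, and no sequences or coordinates are printed.

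Signals were floored at 37.7, log2 values taken, and a probe set kept where 2 or more arrays called it Present. Of the probe sets, 13513 were named by the platform annotation with 1 gene, 13436 of them matched to TAIR10.1, 503 had several genes and 8730 none. A further 18 were named from deposited descriptions, *VSP1* and *PR4* among them. The tests were limma 3.58.1 (R 4.3.3, lmFit, eBayes, two-sided) with genotype and condition additive, leaving 4 residual degrees of freedom. In the nested fit, with 2, genotype was nested in treatment class (untreated, MeJA or wounded), both times of a treatment sharing 1 genotype difference. Both fits were tested on simulated data. The remaining steps ran in Python 3.11.15 with pandas 2.3.3, NumPy 2.4.6 and, for plots, Matplotlib 3.10.9. All 5 genes are named, and any kept gene of the lists may be named, with the 5 genes most like each in signal. The genes and lists were chosen with earlier results of these data known. Alternatives covered scaling, floor, filter, variance model, subsets of arrays and leaving out each array. *MYC2*, *ORA59* and *VSP2* were not analysed here.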

Additional observations from a re-analysis of the deposited data

Results flagged for a closer look

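For *PDF1.2A* the differences of wounded from untreated arrays had opposite signs in the 2 genotypes, at both times. In Ri17 the wounded array was below the untreated one, with log2 differences of -0.62 at 30 min and -0.40 at 60 min. In Col-0 the wounded array was above it, with 0.67 at 30 min and 1.4 at 60 min. Each of these is a difference between 2 single arrays, and all 4 rest on the untreated pair, which read 374.1 in Ri17 and 92.1 in Col-0. In the nested limma fit the genotype difference in wounded arrays minus that in the untreated pair was -1.54 ± 0.32 (unadjusted p = 0.00555, adjusted p = 0.226), which did not pass. A contrast of this kind was added after the data had been seen.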

How the results depend on the processing

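The additive fit matched the arrays by genotype and by condition, and no other pairing was possible. Each genotype and condition had 1 array, and the labels give no replicate numbers. The numbers in the file headers, whose meaning is not stated, differ between the 2 genotypes in every condition. These numbers are the same on the untreated and wounded arrays of a genotype. On its MeJA arrays they are others, and differ between 1 h and 4 h. Genotype is a term of the additive fit. The calls for *VSP1* in all 4 treatments, for *THI2.1* at 4 h of MeJA, against untreated plants and against 1 h, and for *PR4* at 1 h of MeJA and at 60 min of wounding minus 1 h of MeJA held under every alternative run. Without any 1 array, *VSP1* ran from 4.54 to 6.10 at 1 h and from 4.74 to 6.30 at 4 h of MeJA, and from 3.73 to 5.29 at 30 min and from 2.72 to 4.28 at 60 min of wounding. *THI2.1* ran from 4.04 to 4.54 at 4 h of MeJA and *PR4* from -4.06 to -2.56 at 1 h. *PDF1.2A* ran from -1.98 to -0.83 at 1 h of MeJA. For MeJA 4 h minus 1 h the ranges were 3.78 to 4.08 (*THI2.1*), 1.94 to 2.16 (*PDF1.2A*) and 2.3 to 3.27 (*PR4*). For wounding at 60 min minus MeJA at 1 h they were -2.19 to -1.45 (*VSP1*), 1.36 to 2.46 (*PDF1.2A*), 2.22 to 3.14 (*PDF1.2B*) and 2.47 to 3.38 (*PR4*).

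With no detection filter, where more probe sets are tested, these calls did not pass at unchanged values: *PDF1.2A* at 1 h of MeJA (-1.41, adjusted p = 0.12), at MeJA 4 h minus 1 h (2.05, 0.0857) and at wounding 60 min minus MeJA 1 h (1.91, 0.0564), *PR4* at MeJA 4 h minus 1 h (2.79, 0.0766), and *VSP1* (-1.82, 0.103) and *PDF1.2B* (2.68, 0.0728) at wounding 60 min minus MeJA 1 h. With a floor at 64 *PDF1.2A* gave -1.16 (0.102) at 1 h of MeJA and 1.80 (0.0524) for 4 h minus 1 h, and *VSP1* -1.82 (0.0514) for wounding minus MeJA, and the cause was not tested. Fitted on untreated and MeJA arrays alone, *PR4* gave 2.79 (0.0547) for 4 h minus 1 h, with fewer samples.

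Values that did not pass and changed sign when 1 array was left out were *PDF1.2B* (-1.17 to 1.11) and *PR4* (-1.27 to 0.22) at 4 h of MeJA, *THI2.1* (-0.25 to 0.37), *PDF1.2A* (-0.55 to 0.60), *PDF1.2B* (-0.27 to 0.14) and *PR4* (-1.23 to 0.26) at 30 min of wounding, and *PDF1.2A* (-0.07 to 1.08) and *PR4* (-1.13 to 0.36) at 60 min. The same held for *VSP1* at MeJA 4 h minus 1 h (-0.17 to 0.57), *PDF1.2A* (-0.08 to 1.02) and *PR4* (-0.36 to 0.56) at wounding 60 min minus 30 min, and *THI2.1* at wounding 60 min minus MeJA 1 h (-0.23 to 0.44). Of these, *PDF1.2B* at 4 h of MeJA also changed sign with quantile normalization (0.01) and a floor at 64 (0.35), against -0.03, and *THI2.1* at wounding 60 min minus MeJA 1 h with a floor at 16 (-0.13, against 0.11), and the cause was not tested. *PDF1.2B* at 60 min of wounding passed on untreated and wounded arrays alone (1.42, adjusted p = 0.0282).

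Counts of probe sets called moved by over 1.5 times in some settings. Between MeJA 4 h and 1 h limma called 2249, against 1198 with no filter, 1419 without the wounded arrays and 224 to 2516 without 1 array. Between the times of wounding it called 676, against 439 with a floor at 16, 161 with no filter, 0 without the MeJA arrays, 144 without both arrays at 1 h of MeJA (chosen after seeing the data) and 0 to 673 without 1 array. On untreated and wounded arrays alone 1467 in place of 3098 were called at 30 min and 2628 in place of 4341 at 60 min. Without 1 array the counts were 2467 to 4911 at 1 h and 3149 to 5828 at 4 h of MeJA, 1452 to 3143 at 30 min and 2781 to 3922 at 60 min of wounding, and 2083 to 5733 (5304 with all arrays) for wounding minus MeJA. Single-pair differences of *THI2.1*, *PDF1.2A* and *PDF1.2B* near the floor moved with it, by more than the residual SD in 6 settings.

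The number of arrays limits the precision: the spread behind each p holds array noise and any true difference between the genotypes in their response, and the nested fit has 2 residual degrees of freedom. Signals near the floor, which those of *THI2.1* and *PDF1.2B* often were, give bounds.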
